A study of Mus musculus with 6 samples.

Results

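The transcripts of glycolysis and of the cellular response to low oxygen were followed in naive CD4 T cells activated in vitro, with or without the transcription factor Foxo1. The 34 genes were chosen by their symbols from knowledge of these pathways, with earlier results of these data known, and not by their values. Each of the 34 symbols matched 1 gene of the deposited normalized table, which holds 13564 genes. All 34 also passed the filter on low counts, which left 13691 of the 55487 genes of the count files for testing. They were placed into 7 roles, namely glucose and lactate transport (4 genes), upper glycolysis down to the triose phosphates (9), lower glycolysis (6), the fate of pyruvate (4), the enzymes that set fructose 2,6-bisphosphate (2), hypoxia-inducible factor (HIF) and oxygen sensing (4) and other hypoxia-response genes (5).

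Glycolysis breaks glucose down to pyruvate in the cytosol, and activated T cells are known to take up glucose and run this pathway at a high rate, releasing much of the carbon as lactate. HIF-1 is a dimer whose alpha subunit, encoded by Hif1a, is hydroxylated by prolyl hydroxylases when oxygen is present, recognised by the von Hippel-Lindau protein and degraded. When it is stable, HIF-1 binds a short core sequence near its target genes, which include glucose transporters, most glycolytic enzymes and genes of mitochondrial autophagy. Foxo1 is a forkhead transcription factor that is kept out of the nucleus by signals through AKT.

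The study asked how loss of Foxo1 alters the transcriptome of activated naive CD4 T cells. Foxo1TKO mice lack Foxo1 in all T cells through a Cre recombinase driven by Cd4 regulatory sequences and floxed Foxo1 alleles (CD4cre Foxo1 fl/fl), so the gene was already absent from developing thymocytes and not only during culture. Foxo1Ctrl mice, their controls, carried the floxed alleles without the Cre, so the Cre itself differed between the genotypes along with Foxo1. The mice were young adults, an age the study sets at 3 months. Both genotypes were on the C57BL/6J strain, with a Foxp3-GFP reporter per the methods of the study. Naive CD4 T cells from lymph nodes, 50000 per culture by the labels, were activated for 4 days with 0.1 µg/ml of an anti-CD3 antibody and 250000 splenocytes of CD3eKO mice, which supply antigen-presenting cells and lack T cells of their own. The methods of the study give another number of T cells per culture. There were 3 libraries of each genotype. Neither source says that T cells were separated from splenocytes before RNA was extracted, or that the 3 libraries of a genotype came from separate animals, so p-values measure only the spread between these libraries. In bulk RNA, fewer cells of a type and less RNA per cell cannot be told apart.

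The expected counts summed to between 16502060 and 19675407 per Foxo1TKO library and to between 14783853 and 18265917 per Foxo1Ctrl library. Levels of a gene are given as CPM, its count scaled by the size of the library, and levels compared between genes as TPM, which also takes the length of the transcript into account. Foxo1 itself had 4.84, 2.64 and 6.51 CPM in the Foxo1TKO libraries and 86.6, 129.5 and 90.6 in the Foxo1Ctrl libraries, a log2 fold change of −4.45. Of 8 T cell markers none passed the edgeR test described below (1 was lower at an unadjusted p under 0.05, and none passed DESeq2), and their summed level was 7946 to 8719 TPM in Foxo1TKO and 9537 to 10080 in Foxo1Ctrl libraries. With the GC slope covariate, also described below, Cd3d, Cd2 and Cd3g passed (adjusted p = 0.000779, 0.000798 and 0.0217, edgeR with Benjamini-Hochberg adjustment), and the rest did not. Their log2 fold changes without the covariate were −0.54, −0.48 and −0.35. Of 8 B cell markers, 6 could be tested and 4 were lower in Foxo1TKO libraries, beside 12.4% of all genes tested. The list summed to only 6.83 to 9.9 TPM in Foxo1TKO and 22.27 to 29.3 TPM in Foxo1Ctrl libraries. The B cell markers were thus lower in the same libraries as the lower genes below, and their part in the results was not tested. The B cell count was 2 without Foxo1TKO replicate 1 or 2 or Foxo1Ctrl replicate 1 or 3. Among the 4, Cd22 had at most 8 counts in any Foxo1TKO library and passed the filter on low counts only through the Foxo1Ctrl libraries. Its call is given no weight, and it drops out of the tested genes whenever a Foxo1Ctrl library is left out. Of 8 proliferation markers, 4 were higher in Foxo1TKO libraries, a count of 2 without Foxo1TKO replicate 1 and of 1 without Foxo1TKO replicate 2 or 3 or Foxo1Ctrl replicate 1 or 3. Among all genes tested, 11.8% were higher. The 4 were Top2a, Cdk1, Pcna and Mcm5. Of those not called, Mki67 and Birc5 had negative log2 fold changes (−0.12 and −0.41) and Ccnb1 and Mcm2 positive ones (0.14 and 1.47). By dye dilution, another measure, the study found reduced proliferation of Foxo1-deficient cells in such cultures. How the transcripts relate to that result was not tested. Of 4 plasma cell markers, 2 could be tested. Jchain was lower, a call lost without Foxo1TKO replicate 3 or Foxo1Ctrl replicate 1 or 2. Xbp1 overlapped between the genotypes and did not pass (adjusted p = 0.976, edgeR with Benjamini-Hochberg adjustment). The dendritic cell list held 6 markers, of which 3 could be tested. Itgax had 19.8, 23.3 and 27.5 CPM in Foxo1TKO libraries and at most 1 count in any Foxo1Ctrl library. It passed the filter on low counts only through the Foxo1TKO libraries, so its call is given no weight. Xcr1 and Zbtb46 overlapped between the genotypes and did not pass, with log2 fold changes of 0.44 and −0.48. The macrophage, neutrophil, NK cell and CD8 T cell lists summed to at most 8.29 TPM in any library. The erythroid list ranged from 35.4 to 69.58 TPM and overlapped between the genotypes.

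Within each genotype the libraries also differed in how strongly their levels followed the GC content of the transcripts. The slope of a gene's log2 level on GC content, relative to the mean of its genotype, was 0.22, −0.08 and −0.14 per 10 percentage points in Foxo1TKO replicates 1, 2 and 3 and 0.16, −0.27 and 0.11 in Foxo1Ctrl replicates 1, 2 and 3. Thus, Foxo1TKO replicate 1 and Foxo1Ctrl replicates 1 and 3 lay on one side, and Foxo1TKO replicates 2 and 3 and Foxo1Ctrl replicate 2 on the other. Over the 34 genes, the difference of Foxo1TKO replicate 1 from replicates 2 and 3 and the difference of Foxo1Ctrl replicates 1 and 3 from replicate 2 had a Spearman correlation of 0.74, as a description over genes that share the same libraries. Results with the slope as a covariate are given beside the main ones for the 34 genes, all genes tested and the T cell markers. That fit was chosen after the data were seen, and it takes the slopes from the same counts, so its p-values are too small.

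Between the genotypes, 20 of the 34 genes passed edgeR's quasi-likelihood test at an adjusted p under 0.05 (Benjamini-Hochberg adjustment over all genes tested), 15 of them lower and 5 higher in Foxo1TKO cells. Among all genes tested, 24.2% passed, 12.4% lower and 11.8% higher, against 44.1% and 14.7% of the 34 genes. The share of lower genes was thus above that of all genes, and the share of higher genes was close to it. The median log2 fold change (Foxo1TKO over Foxo1Ctrl) was −0.77 over the 34 genes and 0.01 over all genes tested. With a fold change over 1.5 asked for as well, 15 genes were lower and 4 higher, where 11.8% and 11.1% of all genes were. The values of 23 genes did not overlap between the genotypes, 18 lower and 5 higher in Foxo1TKO cells, where 42.7% of all genes tested had no overlap, 21.2% lower and 21.5% higher. The 14 genes that did not pass had log2 fold changes from −1.10 to 0.57 and adjusted p from 0.0652 to 0.877 (edgeR, Benjamini-Hochberg), and 10 of these changes were negative.

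The calls depended on single libraries to different degrees. With each library left out in turn, 12 genes passed in all 6 fits, namely Aldoc, Tpi1, Pdk1, Hif1a, Egln3, Bnip3, Ankrd37, P4ha1 and Mxi1 among the lower genes and Slc16a1, Eno3 and Pfkfb3 among the higher genes. Without Foxo1TKO replicate 2, 9 genes were lower and 3 higher, the fewest of these fits, while the genes called among all those tested fell to 933 lower and 657 higher from 1695 and 1613. The higher genes were also 3 without Foxo1TKO replicate 3, Foxo1Ctrl replicate 1 or Foxo1Ctrl replicate 3, with 12 lower each. With the GC slope of the library as a covariate, 22 genes were lower and 5 higher, where 21.7% and 23.2% of all genes were. The 7 genes added, all lower, were Slc2a1, Hk2, Pfkl, Pfkp, Gapdh, Eno1 and Pkm. The plot of the levels in each library shows where the genotypes separate and where replicates of one genotype lie apart. In it, and in the text, the 3 libraries of a genotype keep the order of their replicate numbers, which carries no ranking.

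**Figure D1:**
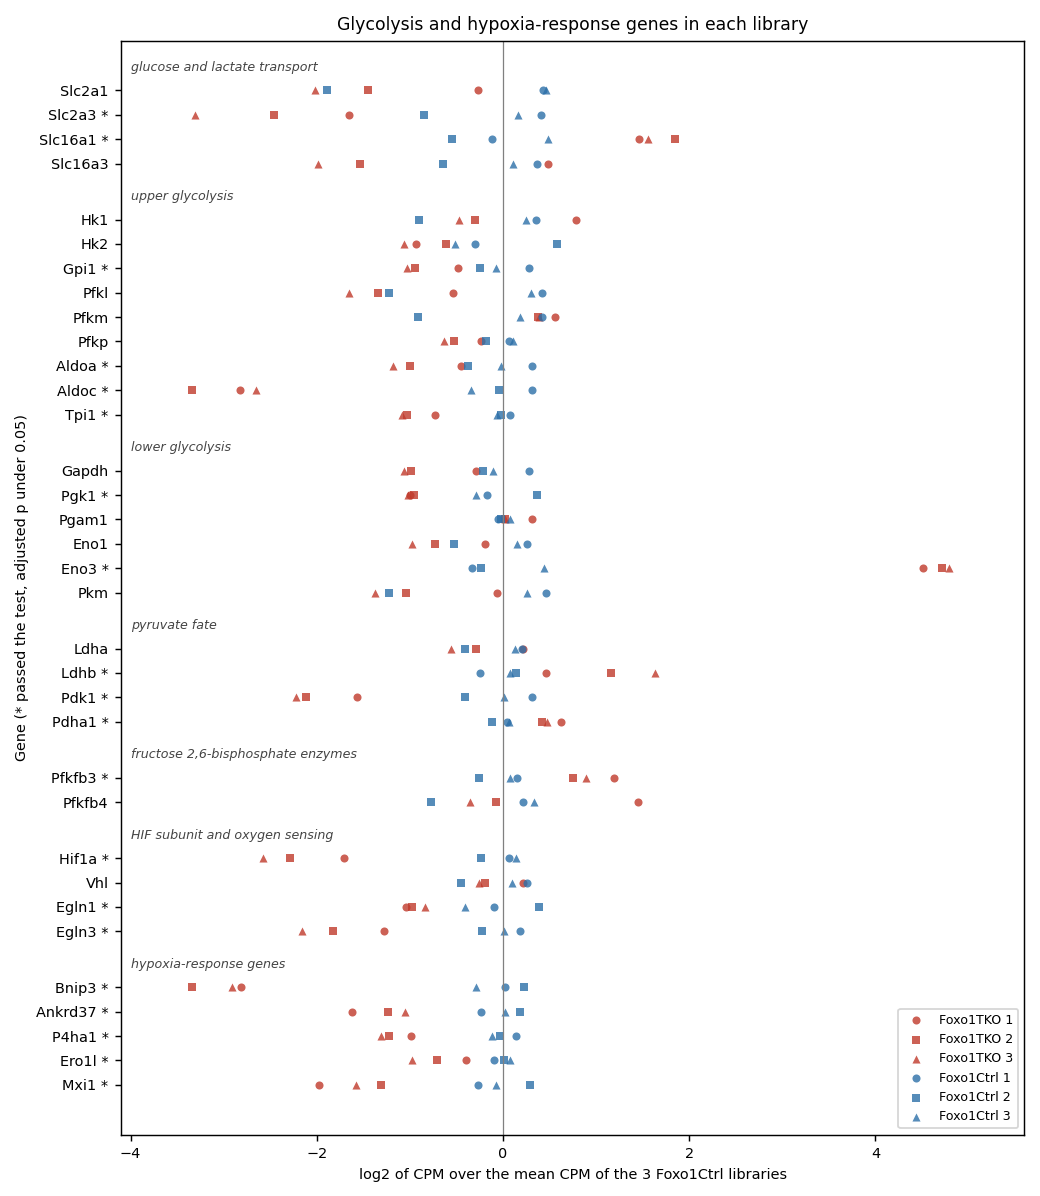
Level of each of the 34 genes in each library, as the log2 of its CPM over the mean CPM of the 3 Foxo1Ctrl libraries (horizontal axis), with genes grouped by role (vertical axis) and an asterisk on those with an adjusted p under 0.05. Red points are Foxo1TKO and blue points Foxo1Ctrl libraries, with a circle, square and triangle for replicates 1, 2 and 3. Bnip3 and Aldoc have the most negative log2 fold changes, −3.00 and −2.91, and Eno3 lies farthest to the right with 4.67.

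**Figure D2:**
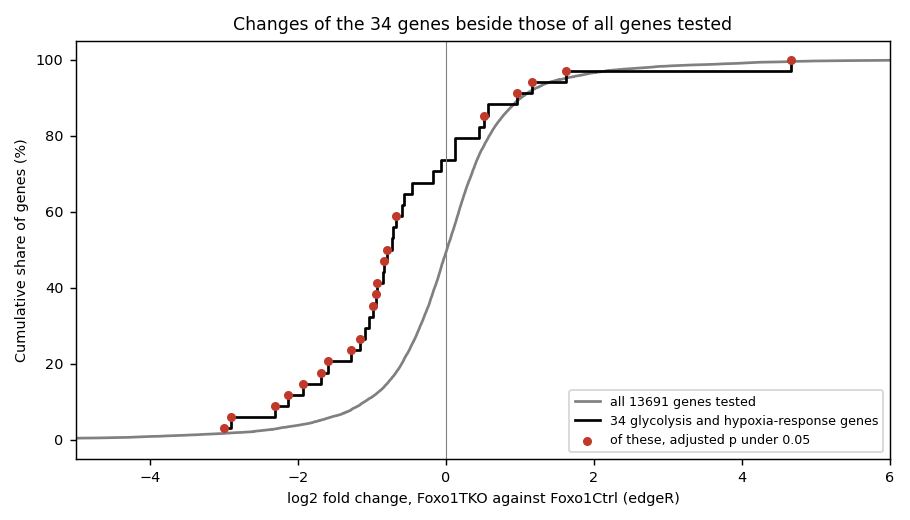
Cumulative share of genes (%, vertical axis) by log2 fold change of Foxo1TKO against Foxo1Ctrl libraries (horizontal axis), for the 13691 genes tested (grey) and the 34 glycolysis and hypoxia-response genes (black), with those at an adjusted p under 0.05 as red points. The black line lies to the left of the grey line over most of its course, with medians of −0.77 and 0.01.

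The sequences before the start sites of these genes were read from RefSeq (GRCm38.p6) as windows of 250 bases, and 33 of the 34 genes had at least 1 window. The core of the hypoxia response element, ACGTG or GCGTG on either strand, was in 39 of their 48 windows (81.2%) and in 55.4% of the 12119 windows of genes tested, or 38.6% of all 32851 windows. The core was found for 12 of 14 lower genes, 5 of 5 higher genes and 13 of 14 genes that did not pass, so its presence did not follow the direction of the change. The E-box CACGTG, which holds the core on both strands and so counts as 2 core matches, was in 6 of the 48 windows (12.5%) and in 8.26% of windows of genes tested. A forkhead motif, GTAAACA on either strand, was in 2 of the 48 windows (4.17%), one each for Aldoc and Mxi1, and in 2.24% of windows of genes tested. That window of Mxi1 lies wholly within annotated exons, and that of Aldoc has 136 of its 250 bases there. Exon bases were not removed for the shares given here. A match of letters is a description and not a site. The first 4 windows below belong to hypoxia-response genes that were lower in Foxo1TKO cells, and bases inside annotated exons were left off their ends. Capitals mark the core and E-box matches.
Bnip3: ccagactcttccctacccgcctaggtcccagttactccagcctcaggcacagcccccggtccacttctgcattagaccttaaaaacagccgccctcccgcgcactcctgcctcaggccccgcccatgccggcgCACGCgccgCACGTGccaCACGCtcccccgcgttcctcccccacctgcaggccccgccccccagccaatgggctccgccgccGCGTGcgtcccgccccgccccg
Ankrd37: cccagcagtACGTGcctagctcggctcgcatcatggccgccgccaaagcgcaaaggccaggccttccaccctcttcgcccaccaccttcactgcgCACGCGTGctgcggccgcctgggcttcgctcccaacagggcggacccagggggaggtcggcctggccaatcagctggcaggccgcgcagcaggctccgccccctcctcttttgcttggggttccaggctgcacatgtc
P4ha1: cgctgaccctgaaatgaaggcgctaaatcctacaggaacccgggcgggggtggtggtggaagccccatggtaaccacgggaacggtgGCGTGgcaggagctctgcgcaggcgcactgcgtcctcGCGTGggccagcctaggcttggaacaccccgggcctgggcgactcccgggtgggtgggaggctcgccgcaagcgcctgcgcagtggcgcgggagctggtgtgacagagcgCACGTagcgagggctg
Egln3: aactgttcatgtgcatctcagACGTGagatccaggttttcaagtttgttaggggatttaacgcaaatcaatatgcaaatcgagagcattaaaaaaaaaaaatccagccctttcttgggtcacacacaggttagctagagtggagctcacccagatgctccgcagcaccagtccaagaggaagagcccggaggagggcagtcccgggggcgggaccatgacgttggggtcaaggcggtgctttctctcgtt
The Bnip3 window is chr7:138909520-138909756, upstream of the gene on its minus strand, and holds 5 core matches, 2 of them within its E-box. That of Ankrd37 is chr8:45999868-46000100 on the minus strand, which lies within an intron of a longer annotated form of the gene, and it has 3 core matches, of which 2 overlap. For P4ha1 the window is chr10:59323046-59323295 on the plus strand with 3 matches, and for Egln3 it is chr12:54203875-54204124 on the minus strand with 1. The next 4 windows are those of Hif1a itself, of Pdk1 and of the 2 genes with the highest positive fold changes. The product of Pdk1 inactivates pyruvate dehydrogenase, which turns pyruvate into acetyl-CoA in mitochondria.
Hif1a: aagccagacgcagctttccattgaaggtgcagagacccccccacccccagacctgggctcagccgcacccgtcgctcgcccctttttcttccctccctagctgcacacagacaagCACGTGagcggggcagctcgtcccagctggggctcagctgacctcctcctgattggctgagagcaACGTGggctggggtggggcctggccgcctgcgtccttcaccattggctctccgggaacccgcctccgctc
Pdk1: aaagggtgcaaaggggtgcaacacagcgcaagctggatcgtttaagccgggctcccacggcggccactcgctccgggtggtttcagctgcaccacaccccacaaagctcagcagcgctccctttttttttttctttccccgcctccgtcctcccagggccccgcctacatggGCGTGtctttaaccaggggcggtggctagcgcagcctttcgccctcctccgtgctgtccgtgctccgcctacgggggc
Slc16a1: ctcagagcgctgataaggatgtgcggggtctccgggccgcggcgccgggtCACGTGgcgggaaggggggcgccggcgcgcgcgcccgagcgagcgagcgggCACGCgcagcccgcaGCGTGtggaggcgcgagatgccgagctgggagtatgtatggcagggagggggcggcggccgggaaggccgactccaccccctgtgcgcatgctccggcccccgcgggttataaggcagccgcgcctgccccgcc
Eno3: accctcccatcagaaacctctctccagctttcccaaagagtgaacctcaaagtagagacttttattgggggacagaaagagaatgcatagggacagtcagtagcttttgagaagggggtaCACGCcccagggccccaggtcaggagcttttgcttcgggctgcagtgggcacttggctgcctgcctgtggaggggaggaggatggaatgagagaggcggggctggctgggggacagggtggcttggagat
The Hif1a window, chr12:73907617-73907866 on the plus strand, lies in an intron of the longest annotated gene model and has 3 core matches, 2 of them in an E-box. The Pdk1 window is chr2:71872974-71873223 on the plus strand with 1 match. The Slc16a1 window, chr3:104638414-104638663 on the plus strand, has 4 matches with an E-box among them, and the Eno3 window, chr11:70656926-70657175 on the plus strand, has 1. Genes that fell and genes that rose both carry the core in these windows, as the map of motif matches shows.

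**Figure D3:**
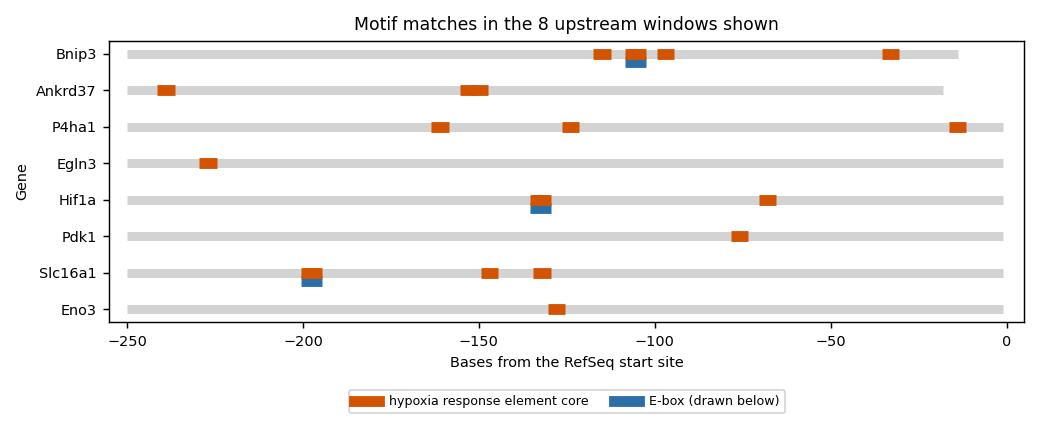
Matches to the hypoxia response element core (orange) and the E-box (blue, drawn below) in the 8 windows shown, one row per gene (vertical axis), by the number of bases before the RefSeq start site (horizontal axis). Grey bars are the bases shown. Bnip3 has 5 core matches and Slc16a1 has 4, although Bnip3 fell and Slc16a1 rose in Foxo1TKO cells.

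Glucose enters T cells mainly through the transporters encoded by Slc2a1 (GLUT1) and Slc2a3 (GLUT3). Slc2a3 had 133, 76.0 and 42.2 CPM in Foxo1TKO libraries and 554, 233 and 466 CPM in Foxo1Ctrl libraries, without overlap. It fell 4.99-fold (log2 fold change −2.32, standard error (SE) 0.46, adjusted p = 0.00944, edgeR with Benjamini-Hochberg adjustment), and the call was lost without Foxo1TKO replicate 2 (adjusted p = 0.0518, same test). Slc2a1 had 25.3, 11.2 and 7.54 CPM in Foxo1TKO and 41.1, 8.23 and 42.1 CPM in Foxo1Ctrl libraries. The low Foxo1Ctrl library, replicate 2, lay among the Foxo1TKO values, and the difference did not pass (log2 fold change −1.05, 95% interval −2.29 to 0.20, adjusted p = 0.278, edgeR with Benjamini-Hochberg adjustment). Per length, Slc2a3 was the more abundant of the pair in every library and made up 78.1% of their mean TPM in Foxo1TKO and 89.2% in Foxo1Ctrl cells. The log2 TPM ratio of Slc2a1 to Slc2a3 was −1.74, −2.09 and −1.76 in Foxo1TKO libraries and −3.08, −4.04 and −2.75 in Foxo1Ctrl libraries, higher by 1.43 in Foxo1TKO cells without overlap. Here and for the other 7 ratios, an exact two-sided permutation test of 3 libraries against 3 cannot give a p under 0.1, which this ratio reached (0.2 after Benjamini-Hochberg adjustment over the 8 ratios).

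Monocarboxylate transporters carry lactate and pyruvate across the membrane, with MCT1 (Slc16a1) common to many cells and MCT4 (Slc16a3) typical of strongly glycolytic ones. Slc16a1 had 48.7, 63.9 and 52.1 CPM in Foxo1TKO libraries and 16.3, 12.1 and 24.8 CPM in Foxo1Ctrl libraries. All Foxo1TKO values lay above all Foxo1Ctrl values, and it rose 3.09-fold (log2 fold change 1.63, SE 0.28, adjusted p = 0.00483, edgeR with Benjamini-Hochberg adjustment). Slc16a3 was scarce, with 7.09, 1.74 and 1.28 CPM against 6.49, 3.24 and 5.44 CPM, and Foxo1TKO replicate 1 held the highest value of all 6. Its log2 fold change of −0.57 did not pass (95% interval −1.79 to 0.66, adjusted p = 0.558, edgeR with Benjamini-Hochberg adjustment), whereas without that library it was −1.70 and passed (adjusted p = 0.0284, same test). Set against each other, Slc16a3 and Slc16a1 had a log2 TPM ratio of −1.88, −4.27 and −4.73 in Foxo1TKO libraries and −0.37, −1.14 and −1.28 in Foxo1Ctrl libraries, without overlap (exact permutation p = 0.1, 0.2 after adjustment). Transporter transcripts thus moved in both directions, with GLUT3 down and MCT1 up.

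In upper glycolysis, 4 of the 9 genes fell, namely Gpi1, Aldoa, Aldoc and Tpi1, and the edgeR test called no gene higher, also at an unadjusted p under 0.05 or by DESeq2. Hexokinases phosphorylate glucose and so trap it in the cell. Hk1 had 53.9, 25.5 and 22.6 CPM in Foxo1TKO and 40.2, 16.9 and 37.1 CPM in Foxo1Ctrl libraries, with much overlap. Its log2 fold change of 0.12 (95% interval −0.71 to 0.94) turned negative without Foxo1TKO replicate 1 or Foxo1Ctrl replicate 2, at −0.38 and −0.17. Hk2, the form induced by T cell activation, had 8.62, 10.7 and 7.85 CPM against 13.3, 24.6 and 11.5 CPM. The genotypes did not overlap, but the difference missed the threshold (log2 fold change −0.85, 95% interval −1.48 to −0.23, adjusted p = 0.0916, edgeR with Benjamini-Hochberg adjustment). The log2 TPM ratio of Hk2 to Hk1 was −2.71, −0.88 and −0.99 in Foxo1TKO libraries and −1.12, 1.21 and −1.35 in Foxo1Ctrl libraries, so replicates spread over a range that covers the difference (exact permutation p = 0.6, also after adjustment).

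Gpi1, glucose-6-phosphate isomerase, had 287, 208 and 196 CPM in Foxo1TKO and 485, 339 and 379 CPM in Foxo1Ctrl libraries and fell 1.74-fold (log2 fold change −0.80, SE 0.21, adjusted p = 0.0269, edgeR with Benjamini-Hochberg adjustment). The values did not overlap, yet the call was lost in 4 of the 6 leave-one-out fits, those without Foxo1TKO replicate 2 or 3 or Foxo1Ctrl replicate 1 or 3 (adjusted p up to 0.123, same test). Phosphofructokinase commits sugar to glycolysis and has liver (Pfkl), muscle (Pfkm) and platelet (Pfkp) isozymes. Pfkl had 131, 74.8 and 60.1 CPM in Foxo1TKO and 253, 81.2 and 234 CPM in Foxo1Ctrl libraries. Foxo1Ctrl replicate 2 lay among the Foxo1TKO values, and the difference did not pass (log2 fold change −1.10, 95% interval −1.97 to −0.22, adjusted p = 0.117, edgeR with Benjamini-Hochberg adjustment), though it did without that library (adjusted p = 0.0181, same test). Pfkp, the most abundant of the isozymes per length, had 254, 208 and 194 CPM against 314, 264 and 322 CPM. These values did not overlap, and its log2 fold change of −0.46 (95% interval −0.78 to −0.14) had an adjusted p of 0.0791, or 0.0465 without Foxo1Ctrl replicate 2 (same test). Pfkm had 11.3 to 12.9 CPM in Foxo1TKO and 4.67 to 11.7 CPM in Foxo1Ctrl libraries and did not pass. Between Pfkp and Pfkl, the log2 TPM ratio overlapped, with 0.97, 1.72 and 2.07 in Foxo1TKO against 0.48, 2.08 and 0.57 in Foxo1Ctrl libraries (exact permutation p = 0.4).

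Aldolases split fructose 1,6-bisphosphate into triose phosphates. Aldoa had 1052, 721 and 636 CPM in Foxo1TKO and 1785, 1112 and 1422 CPM in Foxo1Ctrl libraries. It fell 1.79-fold without overlap (log2 fold change −0.84, SE 0.25, adjusted p = 0.0426, edgeR with Benjamini-Hochberg adjustment), a call that was lost without Foxo1TKO replicate 2 or 3 or Foxo1Ctrl replicate 1 or 3 (adjusted p up to 0.166, same test). Aldoc, the isozyme best known from brain, fell far more. It had 10.2, 7.11 and 11.4 CPM in Foxo1TKO and 89.5, 70.0 and 57.1 CPM in Foxo1Ctrl libraries, a 7.51-fold fall (log2 fold change −2.91, SE 0.26, adjusted p = 0.000282, edgeR with Benjamini-Hochberg adjustment). Each Foxo1Ctrl library had several times the level of any Foxo1TKO library, and the call held without any one library. Relative to Aldoa, Aldoc had a log2 TPM ratio of −6.97, −6.96 and −6.13 in Foxo1TKO libraries and −4.61, −4.17 and −4.89 in Foxo1Ctrl libraries, a difference of −2.13 without overlap (exact permutation p = 0.1, 0.2 after adjustment). Tpi1, which interconverts the triose phosphates, had 299, 241 and 233 CPM against 522, 489 and 473 CPM. Replicates of Tpi1 lay close together, and its 1.92-fold fall (log2 fold change −0.94, SE 0.15, adjusted p = 0.00394, edgeR with Benjamini-Hochberg adjustment) held in all 6 fits.

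In lower glycolysis, 1 of 6 genes fell (Pgk1) and 1 rose (Eno3). Pgk1, phosphoglycerate kinase, makes the first ATP of the pathway. It had 457, 471 and 450.4 CPM in Foxo1TKO and 810.3, 1179 and 749 CPM in Foxo1Ctrl libraries and fell 1.99-fold without overlap (log2 fold change −0.99, SE 0.20, adjusted p = 0.00911, edgeR with Benjamini-Hochberg adjustment). Without Foxo1TKO replicate 2 the adjusted p was 0.05005 (same test). Gapdh, which carries out the step before, ranged from 265 to 454 CPM in Foxo1TKO and from 476 to 672 CPM in Foxo1Ctrl libraries. Its values did not overlap and its log2 fold change of −0.73 (95% interval −1.22 to −0.25) had an adjusted p of 0.0652, or 0.0140 without Foxo1TKO replicate 1 (same test). Gapdh has 124 near-identical copies in the annotation, and reads that mapped to more than 10 places were not kept by the authors, so its level is uncertain. Pgam1, phosphoglycerate mutase, was at 200 to 244 CPM in Foxo1TKO and 190 to 208 CPM in Foxo1Ctrl libraries, with a log2 fold change of 0.12 (95% interval −0.16 to 0.41). Pkm, pyruvate kinase, spread from 924 to 2301 CPM in Foxo1TKO and from 1031 to 3307 CPM in Foxo1Ctrl libraries. Its spread within the genotypes exceeded the difference between them (log2 fold change −0.71, 95% interval −1.64 to 0.21).

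The largest change of the 34 genes was that of Eno3, the enolase isozyme typical of skeletal muscle. Eno3 (ENSMUSG00000060600, chr11:70657202-70662513, plus strand, GRCm38) had 600.2, 689.7 and 727 CPM in Foxo1TKO libraries against 20.9, 22.4 and 35.7 CPM in Foxo1Ctrl libraries. It rose 25.4-fold (log2 fold change 4.67, SE 0.26, adjusted p = 4.8e-05, edgeR with Benjamini-Hochberg adjustment), and the log2 fold change lay between 4.50 and 4.94 with any one library left out. Eno1, the common isozyme, had 2505, 1720 and 1453 CPM in Foxo1TKO and 3431, 1981 and 3165 CPM in Foxo1Ctrl libraries. These values overlap, and its difference did not pass (log2 fold change −0.60, 95% interval −1.13 to −0.06, adjusted p = 0.160, edgeR with Benjamini-Hochberg adjustment). The interval of Eno1, a normal approximation from the SE, leaves out no change, although the unadjusted p was 0.0626 (edgeR). Per length, Eno3 stood at 629.7 ± 9.84 TPM (SD, n = 3) in Foxo1TKO and 25.0 ± 9.02 TPM (SD, n = 3) in Foxo1Ctrl cells, and its rank by mean TPM among the 13691 genes tested was 257 and 4351. Eno3 thus made up 33.3% of the mean TPM of both enolases in Foxo1TKO cells and 1.34% in Foxo1Ctrl cells. The log2 TPM ratio of Eno3 to Eno1 was −1.54, −0.80 and −0.49 in Foxo1TKO libraries and −6.68, −5.98 and −5.92 in Foxo1Ctrl libraries, a difference of 5.25 without overlap (exact permutation p = 0.1, 0.2 after adjustment). No near-identical copy of Eno3 was found, and no other annotated gene overlaps its exons.

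**Figure D4:**
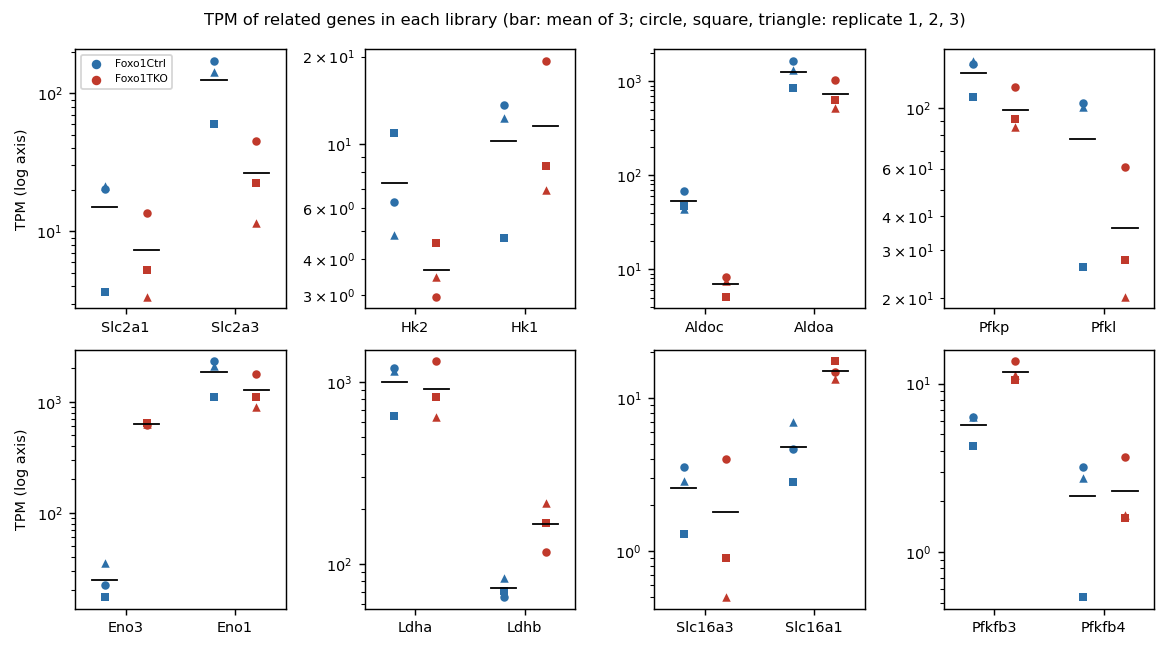
TPM of 8 pairs of isozymes or transporters in each library (vertical axes, log scale), in blue for Foxo1Ctrl and red for Foxo1TKO, with a circle, square and triangle for replicates 1, 2 and 3 and a bar at the mean of 3. Eno3 rises from a mean of 25.0 to 629.7 TPM towards the level of Eno1, Aldoc falls below Aldoa by a wider gap, and the points of Slc2a1, Hk1 and Pfkl overlap between the genotypes.

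At the fate of pyruvate, 2 of 4 genes rose and 1 fell. Lactate dehydrogenase interconverts pyruvate and lactate, and its subunits are encoded by Ldha and Ldhb. Ldha had 1388, 979 and 812 CPM in Foxo1TKO and 1374, 899.9 and 1310 CPM in Foxo1Ctrl libraries. The values overlap, with a log2 fold change of −0.17 (95% interval −0.66 to 0.31). Ldhb had 95.9, 156 and 216 CPM against 58.8, 76.9 and 73.6 CPM and rose 2.23-fold without overlap (log2 fold change 1.16, SE 0.28, adjusted p = 0.0220, edgeR with Benjamini-Hochberg adjustment). The Ldhb call was lost without Foxo1TKO replicate 2 or 3 or Foxo1Ctrl replicate 1 or 3 (adjusted p up to 0.0871, same test). Ldha held 84.6% of the mean TPM of the pair in Foxo1TKO and 93.2% in Foxo1Ctrl cells. Their log2 TPM ratio was 3.48, 2.29 and 1.57 in Foxo1TKO libraries and 4.19, 3.20 and 3.79 in Foxo1Ctrl libraries, which overlap (exact permutation p = 0.2).

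Pyruvate dehydrogenase turns pyruvate into acetyl-CoA in mitochondria, and its kinases inactivate it. The kinase gene Pdk1 had 132, 90.8 and 84.2 CPM in Foxo1TKO and 487, 296 and 396 CPM in Foxo1Ctrl libraries. It fell 3.83-fold without overlap (log2 fold change −1.94, SE 0.25, adjusted p = 0.00144, edgeR with Benjamini-Hochberg adjustment) and passed in all 6 fits. Pdha1, the catalytic subunit of the dehydrogenase, had 231, 202 and 209 CPM against 155, 139 and 157 CPM and rose 1.42-fold (log2 fold change 0.51, SE 0.14, adjusted p = 0.0309, edgeR with Benjamini-Hochberg adjustment). Although the values of Pdha1 did not overlap, the call held only without Foxo1Ctrl replicate 2 (adjusted p from 0.0418 to 0.102 over the 6 fits, same test). Transcripts of Pdk1 and Pdha1 thus moved in opposite directions. Of the other kinase genes of the dehydrogenase, Pdk2 did not pass (log2 fold change −0.56) and Pdk3 was higher, as given below with Pdk4.

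The bifunctional enzymes encoded by Pfkfb3 and Pfkfb4 set the level of fructose 2,6-bisphosphate, an activator of phosphofructokinase. Pfkfb3 had 40.0, 29.5 and 32.5 CPM in Foxo1TKO and 19.5, 14.6 and 18.4 CPM in Foxo1Ctrl libraries. It rose 1.94-fold without overlap (log2 fold change 0.96, SE 0.20, adjusted p = 0.0118, edgeR with Benjamini-Hochberg adjustment) and passed in all 6 fits. Pfkfb4 was scarce, with 5.75, 1.99 and 1.64 CPM against 2.43, 1.23 and 2.64 CPM. Its log2 fold change of 0.57 (95% interval −0.49 to 1.62) rests on Foxo1TKO replicate 1, without which it was −0.20. The log2 TPM ratio of Pfkfb3 to Pfkfb4 was 1.89, 2.72 and 2.77 in Foxo1TKO libraries and 0.99, 2.98 and 1.21 in Foxo1Ctrl libraries, which overlap (exact permutation p = 0.4).

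Of the 4 genes of HIF and oxygen sensing, 3 fell. Hif1a (ENSMUSG00000021109, chr12:73901375-73947530, plus strand, GRCm38), the oxygen-regulated subunit of HIF-1, had 278, 186 and 152 CPM in Foxo1TKO and 952, 769 and 1002 CPM in Foxo1Ctrl libraries. It fell 4.42-fold (log2 fold change −2.14, SE 0.25, adjusted p = 0.000963, edgeR with Benjamini-Hochberg adjustment), and with any one library left out it passed with a log2 fold change between −2.42 and −1.96. The lowest Foxo1Ctrl library thus held more than the highest Foxo1TKO library by a wide margin. Annotated genes overlap its exons on both strands (Gm49321 and Gm15283), and the sources used here do not give the strand setting of the counting. The prolyl hydroxylase gene Egln1 (PHD2) had 37.8, 39.5 and 43.5 CPM against 73.1, 102 and 58.9 CPM and fell 1.93-fold (log2 fold change −0.95, SE 0.22, adjusted p = 0.0164, edgeR with Benjamini-Hochberg adjustment), a call lost without Foxo1TKO replicate 1 or 2 (adjusted p up to 0.0779, same test). Egln3 (PHD3), itself a known HIF target, had 5.61, 3.83 and 3.04 CPM against 15.5, 11.6 and 13.7 CPM. It fell 3.23-fold without overlap (log2 fold change −1.69, SE 0.28, adjusted p = 0.00465, edgeR with Benjamini-Hochberg adjustment) and passed in all 6 fits. Vhl, the substrate receptor that recognises hydroxylated HIF, ranged from 30.4 to 42.2 CPM in Foxo1TKO and from 26.6 to 43.5 CPM in Foxo1Ctrl libraries. Its log2 fold change of −0.06 (95% interval −0.52 to 0.40) changed sign without Foxo1TKO replicate 2 or 3 or Foxo1Ctrl replicate 1.

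All 5 of the other hypoxia-response genes fell, by edgeR and by DESeq2. Bnip3 (ENSMUSG00000078566, chr7:138890836-138909519, minus strand, GRCm38), a mitochondrial receptor for autophagy, fell most. It had 33.6, 23.3 and 31.4 CPM in Foxo1TKO and 238, 276 and 192 CPM in Foxo1Ctrl libraries, a 7.99-fold fall (log2 fold change −3.00, SE 0.21, adjusted p = 0.000128, edgeR with Benjamini-Hochberg adjustment). The replicates of each genotype lay close together beside this difference, and the log2 fold change lay between −3.13 and −2.84 with any one library left out. Mxi1, an antagonist of Myc that binds its partner Max, had 12.8, 20.3 and 16.9 CPM against 41.8, 61.5 and 47.8 CPM and fell 3.01-fold without overlap (log2 fold change −1.59, SE 0.24, adjusted p = 0.00274, edgeR with Benjamini-Hochberg adjustment). Ankrd37, an ankyrin repeat gene known as a HIF target, had 10.01, 13.1 and 14.8 CPM against 26.2, 34.9 and 31.4 CPM. It fell 2.44-fold without overlap (log2 fold change −1.28, SE 0.22, adjusted p = 0.00469, edgeR with Benjamini-Hochberg adjustment). P4ha1, a subunit of the collagen prolyl hydroxylase, had 40.5, 34.5 and 32.4 CPM against 88.5, 78.7 and 74.2 CPM, and the narrow spread of its replicates gave the smallest SE of these 5 genes. It fell 2.25-fold (log2 fold change −1.17, SE 0.16, adjusted p = 0.00195, edgeR with Benjamini-Hochberg adjustment). Ero1l, an oxidase of the endoplasmic reticulum, had 83.6, 67.2 and 55.8 CPM against 103, 111 and 116 CPM and fell least, 1.59-fold (log2 fold change −0.67, SE 0.18, adjusted p = 0.0295, edgeR with Benjamini-Hochberg adjustment). The call of Ero1l held only without Foxo1TKO replicate 1 (adjusted p from 0.0181 to 0.123 over the 6 fits, same test), whereas those of the other 4 held in all 6 fits.

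The GC slope of the libraries touched these genes unequally. Pkm (57.69% GC in its transcripts), Pfkl (57.05%), Slc2a1 (54.02%) and Hk1 (56.38%) were each highest in Foxo1TKO replicate 1 among Foxo1TKO libraries and lowest in Foxo1Ctrl replicate 2 among Foxo1Ctrl libraries, which are the libraries with the highest and the lowest slope. For the first 3 of these, the log2 fold changes with the slope as a covariate were −0.66, −1.01 and −0.93, close to those without it, while the adjusted p fell from 0.320, 0.117 and 0.278 to 0.000209, 0.000109 and 0.00218 (edgeR with Benjamini-Hochberg adjustment). Slc2a3 and Hif1a, at 47.43% and 41.34% GC, did the same, whereas Bnip3 (41.63%) had its highest Foxo1Ctrl value in replicate 2 and Eno3 (54.48%) its lowest Foxo1TKO value in replicate 1. For those 4 genes the covariate moved the log2 fold change by little, to −2.35, −2.18, −2.99 and 4.67. Correcting each gene for its GC content instead gave 17 lower and 5 higher genes, with Pfkl, Gapdh and Eno1 added and Ero1l lost (adjusted p = 0.0768, edgeR with Benjamini-Hochberg adjustment).

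**Figure D5:**
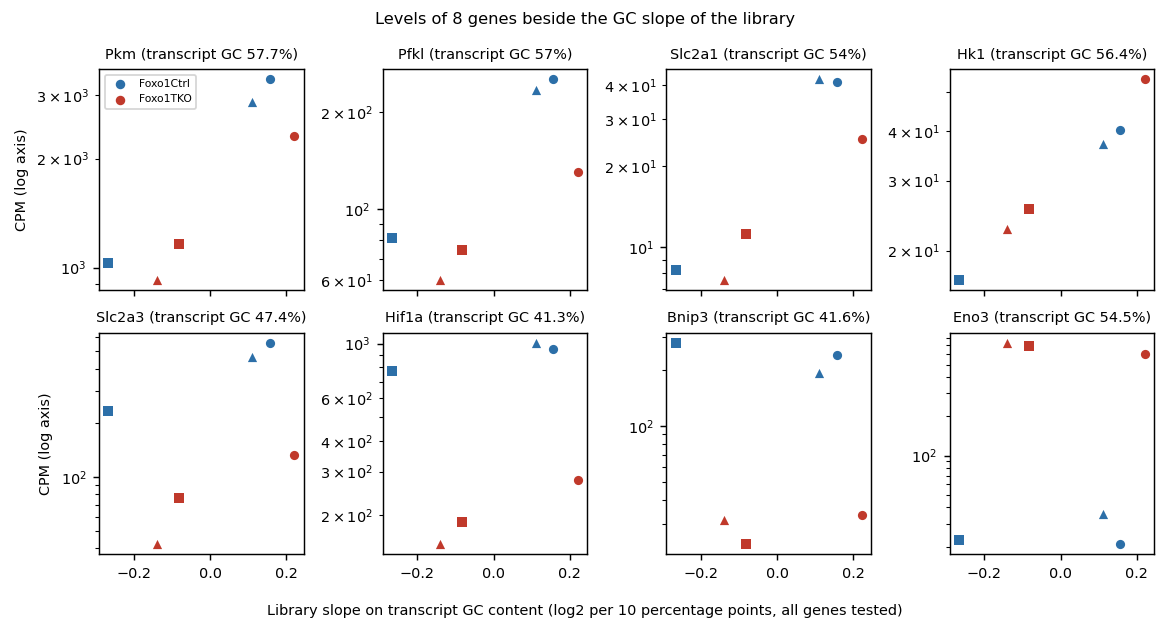
CPM of 8 genes in each library (vertical axes, log scale) against the GC slope of the library (horizontal axes, log2 per 10 percentage points of transcript GC content), in blue for Foxo1Ctrl and red for Foxo1TKO, with a circle, square and triangle for replicates 1, 2 and 3. Within each genotype, Pkm, Pfkl, Slc2a1 and Hk1 are lower in libraries with a negative slope than in those with a positive one, whereas Bnip3 and Eno3 are split by genotype at any slope.

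Summed over the libraries' counts, the 34 genes held 0.720% to 1.25% of all counts in Foxo1TKO and 0.928% to 1.63% in Foxo1Ctrl libraries. These ranges overlap, with Foxo1TKO replicate 1 and Foxo1Ctrl replicate 2 at the highest and the lowest share of their genotype. Near-identical copies were found for 12 of the 34 genes, and adding the counts of the copies changed no call. Antisense genes overlap exons of 13 of the 34 genes, and same-strand genes those of 3 (Pfkm, Pkm and Hif1a). Among the 13 are the lower genes Gpi1, Aldoa, Tpi1, Hif1a, Bnip3, Ankrd37 and Mxi1 and the higher gene Pdha1. As the strand setting of the counting is not given, the part of antisense reads in their levels was not tested.

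Lists of 104 further genes of the same pathways were read from the same test, and of the 87 tested 13 were higher and 11 lower in Foxo1TKO cells. Among all genes tested, 11.8% were higher and 12.4% lower, and the counts of these lists, here and below, are to be read against those shares. Among 18 other hypoxia-response genes tested, 7 fell (Bnip3l, Kdm3a, Higd1a, Ak4, Hilpda, Cited2 and Stc2) and 1 rose (Car12), with a median log2 fold change of −0.59. Of these 7, only Cited2 passed in all 6 leave-one-out fits, and the count of lower genes was 1 without Foxo1TKO replicate 2, 3 without Foxo1Ctrl replicate 1 and 4 without Foxo1TKO replicate 1. Stc2, a secreted glycoprotein, had 0.29, 0.25 and 0 CPM in Foxo1TKO and 1.35, 3.95 and 1.92 CPM in Foxo1Ctrl libraries. With at most 6 counts in any Foxo1TKO library, it passed the filter on low counts only through the Foxo1Ctrl libraries. It therefore drops out of the tested genes whenever a Foxo1Ctrl library is left out. Its level is a description, and its call, counted among the 7 and the 11 lower genes, is given no weight. Car12, a carbonic anhydrase, had 11.3, 4.48 and 3.95 CPM against 1.22, 0.71 and 0.77 CPM. Of 10 genes of HIF and oxygen sensing outside the 34 that were tested, 1 rose (Siah2, log2 fold change 1.73, SE 0.39), a call lost without Foxo1Ctrl replicate 3, while DESeq2 called 2 higher and 1 lower. Their median was −0.03, with members on both sides of it. Epas1, the alpha subunit of HIF-2, had 1.53, 0.50 and 0.12 CPM in Foxo1TKO and 2.64, 3.44 and 3.41 CPM in Foxo1Ctrl libraries. The genotypes did not overlap for Epas1, and its log2 fold change of −2.03 (SE 0.65) missed the threshold (adjusted p = 0.0576, edgeR with Benjamini-Hochberg adjustment).

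In the transport list, Slc16a6, a further monocarboxylate transporter gene, rose 23.6-fold and was the only one of 6 tested to do so. It had 349.5, 371 and 354 CPM in Foxo1TKO and 14.5, 9.46 and 21.3 CPM in Foxo1Ctrl libraries (log2 fold change 4.56, SE 0.30, adjusted p = 0.000106, edgeR with Benjamini-Hochberg adjustment). Emb, an embigin gene whose product escorts monocarboxylate transporters to the membrane, had 206, 264 and 194 CPM against 1267, 1347 and 1100 CPM and fell 5.59-fold (log2 fold change −2.48, SE 0.18). Of 12 genes of pyruvate dehydrogenase and pyruvate entry tested, 3 were higher, a count of 1 without Foxo1TKO replicate 1 or 2, of 2 without Foxo1TKO replicate 3 or Foxo1Ctrl replicate 1, and of 5 without Foxo1Ctrl replicate 2. Among them, the phosphatase gene Pdp1, whose product reactivates the dehydrogenase, had 103, 106 and 128 CPM against 13.3, 15.1 and 23.7 CPM (log2 fold change 2.69, SE 0.25). The kinase gene Pdk3 was higher (log2 fold change 0.67, SE 0.16, adjusted p = 0.0210, edgeR with Benjamini-Hochberg adjustment) and passed in 3 of the 6 leave-one-out fits. The kinase gene Pdk4 was at 12.98, 7.51 and 8.52 CPM in Foxo1TKO libraries with at most 1 count in any Foxo1Ctrl library. It passed the filter on low counts only through the Foxo1TKO libraries, so its level is a description and its call is given no weight. Pdk4 is counted in the 3 higher genes above, and it drops out of the tested genes whenever a Foxo1TKO library is left out.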

How the data were processed

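RNA of 3 Foxo1TKO and 3 Foxo1Ctrl cultures was sequenced, grouped by the titles and genotypes of the labels. Per the processing notes of the submitters, the authors aligned reads with STAR 2.7.6a to GRCm38, kept those mapping to up to 10 places and counted them with RSEM 1.3.1. The deposited expected counts, TPM values and effective lengths are 1 file per library, and the deposited normalized signal is the expected count scaled by DESeq2 and by effective length (100% of its values were matched within 0.1%).

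Expected counts were rounded. A gene was kept when 3 or more libraries had 10 or more counts, and genotypes were compared with edgeR 4.0.16 in R 4.3.3 (TMM scaling, glmQLFit and glmQLFTest, prior count 1), with genotype as the only term and Benjamini-Hochberg adjustment over the 13691 genes tested. Tested genes held at least 99.88% of the counts of each library. The authors tested with DESeq2, in another version than the DESeq2 1.42.0 used here as an alternative. Further alternatives were limma-voom and limma 3.58.1 on the deposited signal (pseudocount 1), other scalings and filters, effective lengths, summed copies, the replicate block, other thresholds and each library left out. The GC offset (20 bins) and the GC slope covariate were added after the data were seen. Annotation was GENCODE M21, copies were found with BLAST 2.17.0 (95% identity over 200 bases), and the tests were tried on simulated counts. Fold changes of ratios are differences of log2 TPM.

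The members and lists were chosen with earlier results of these data known. All 34 genes are reported, with values in each library for those that passed and those in the 8 ratios. Of each other list, the genes with the largest change in each direction among those that passed are named, and others named there were chosen after their values were seen. Intervals were formed from the SE by a normal approximation and cover the fitted error only. With 3 libraries per genotype they are narrower than edgeR's test implies, so they can leave out no change where the test does not. Figures were drawn with matplotlib 3.10.9.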

Additional observations from a re-analysis of the deposited data

How the results depend on the processing

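Of the 34 genes, none changed the direction of its log2 fold change under another test, scaling, filter, length correction or GC correction. With a library left out, the direction of 3 genes that did not pass turned: Hk1 was at −0.38 without Foxo1TKO replicate 1 and −0.17 without Foxo1Ctrl replicate 2 (range −0.38 to 0.35), Pfkfb4 at −0.20 without Foxo1TKO replicate 1 (range −0.20 to 0.87), and Vhl (range −0.23 to 0.065) at 0.012, 0.037 and 0.065 without Foxo1TKO replicate 2, Foxo1TKO replicate 3 and Foxo1Ctrl replicate 1. The cause was not tested. Over the fits that left out 1 library, 9 to 16 of the 34 genes were lower and 3 to 5 higher, and among all genes 933 to 1599 were lower and 657 to 1832 higher, the fewest of each without Foxo1TKO replicate 2. These fits hold fewer libraries. At an adjusted p under 0.01, 11 of the 34 genes were lower and 2 higher, and 868 of all genes were lower and 729 higher. With the GC slope as a covariate, 2970 of all genes were lower and 3170 higher. The fits with DESeq2, the deposited signal and the effective lengths each called 17 of the 34 genes lower, and the fit with no filter on low counts called 17 lower and 4 higher, without Pdha1 (adjusted p = 0.0575, edgeR with Benjamini-Hochberg adjustment). The replicate block gave 17 lower and 5 higher of the 34 genes and 1718 and 1710 of all genes, with Hk2 and Gapdh added. Deviations of libraries with the same number correlated at 0.54, 0.30 and −0.22 for numbers 1, 2 and 3. Numbers 1 and 2 correlated best with their own, and number 3 did not. These 3 values cannot decide whether the numbers pair the samples. For PD1, TIGIT and cell cycles in such cultures, the study used paired tests.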

Other observations

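Lists of neighbouring pathways held changes that the text above does not describe. In glycogen metabolism, 3 of 10 genes tested fell and 1 rose (Gyg, the glycogen primer protein). The glycogen phosphorylase gene Pygl had 2.16, 1.39 and 0.12 CPM in Foxo1TKO and 14.2, 14.9 and 11.7 CPM in Foxo1Ctrl libraries (log2 fold change −3.39, SE 0.65, adjusted p = 0.00817, edgeR with Benjamini-Hochberg adjustment), and the others that fell were Pygm and Pgm1. Gyg and Pgm1 each passed in 2 of the 6 leave-one-out fits, being lost without Foxo1TKO replicate 2 or 3 or Foxo1Ctrl replicate 1 or 3, which left 2 lower genes in those fits. Of 5 genes of the cytosolic NADH shuttles tested, 1 rose, the mitochondrial glycerol-3-phosphate dehydrogenase gene Gpd2, with 41.0, 33.6 and 33.4 CPM against 5.34, 6.42 and 7.20 CPM (log2 fold change 2.50, SE 0.20). All Foxo1TKO values of Gpd2 lay several times above all Foxo1Ctrl values.

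Of 12 genes of the tricarboxylic acid cycle tested, 2 rose, Fh1 (fumarate hydratase, log2 fold change 1.06, SE 0.16) and Suclg2 (a subunit of succinyl-CoA ligase, 0.90, SE 0.17). Fh1 had 73.6, 58.2 and 65.5 CPM in Foxo1TKO and 33.0, 30.3 and 31.3 CPM in Foxo1Ctrl libraries. In the pentose phosphate pathway 1 of 7 genes tested rose (Taldo1, transaldolase), and it passed in none of the 6 leave-one-out fits. Among 7 other glycolysis genes tested, 2 rose, Tigar (log2 fold change 1.02, SE 0.29) and Galm (0.98, SE 0.18), of which Galm passed in all 6 leave-one-out fits and Tigar in 2. The count was 1 without Foxo1TKO replicate 2 or 3 or Foxo1Ctrl replicate 3. These counts are to be read against 11.8% higher and 12.4% lower among all genes tested.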
